A study of Mus musculus with 2 samples.

Results

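The genes described here encode the SR proteins, the heterogeneous nuclear ribonucleoproteins (hnRNPs) and the SF3 proteins, 3 families that act in the splicing of pre-mRNA. Members were the protein-coding genes whose symbol is Srsf followed by a number, begins with Hnrnp, or is Sf3a or Sf3b followed by a number. This gave 11 SR genes, 20 hnRNP genes and 9 SF3 genes, 40 of the 21461 protein-coding nuclear genes measured. They were measured in megakaryocyte-erythroid progenitors (MEP), bone marrow progenitors of red cells and megakaryocytes, taken from C57BL/6J mice, all male and 5 to 6 weeks old. The series held 1 group of 2 libraries, labelled biological replicates 1 and 2, each of total RNA longer than 200 bases from 100 cells with spike-in RNAs added. The labels name separate biosamples and 1 shared donor record. No genotype, treatment or second condition was labelled, so no test between conditions was possible, and the spread between the libraries may be technical.

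Splicing removes introns at sites that the U1 and U2 small nuclear ribonucleoproteins (snRNPs) first recognise. The SF3a and SF3b complexes are parts of the U2 snRNP, and SF3b holds the branch point adenosine of the intron. SR proteins bind exonic enhancers through RNA recognition motifs and recruit the splicing machinery through a domain rich in arginine and serine, whereas many hnRNPs bind silencers and oppose exon use. Many of these genes also limit their own output: an excess of the protein favours a "poison" exon or a retained intron in its own transcript, which brings in a premature stop codon and exposes the RNA to nonsense-mediated decay. In blood formation the families are best known because SF3B1 and SRSF2 are recurrently mutated in human myelodysplastic syndromes.

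Replicate 1 held 30016974 expected counts and replicate 2 held 51510347. Members took 224193 and 460303 of these, and each detected member had between 661 and 35232 expected counts in a library. Levels are in TPM as deposited by the authors, which corrects counts for transcript length and scales every library to the same sum. The MEP label was checked on marker lists: all 7 MEP and erythroid markers were at 1 TPM or more in both libraries, with a summed level of 2490 TPM in replicate 1, against 2938 TPM in replicate 2. The 5 megakaryocyte markers summed to 15.05 and 17.8 TPM, with 1 of the 5 at 1 TPM or more in both. None of 4 markers of stem and myeloid progenitor gates that MEP should lack reached 1 TPM in both, with sums of 3.34 and 2.17 TPM. The 8 neutrophil markers summed to 1882 TPM in replicate 1, against 6.39 TPM in replicate 2, where 5 of the 8 were at 0. The 7 B cell markers summed to 7.14 and 126 TPM, with 1 at 0 in replicate 1, and the 6 T cell markers to 26.4 and 18.7 TPM, with Cd8a at 0 in both. These contrasts run along with the difference between the libraries, and their part in the values below was not tested. In bulk RNA, fewer cells of a type and less RNA per cell cannot be told apart.

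Nearly the whole set was expressed at a solid level. Of the 40 members, 38 were at 10 TPM or more in both libraries, against 24.7% of all protein-coding nuclear genes, and 17 were at 100 TPM or more in both, against 2.2%. The exceptions at 10 TPM were Srsf12 and Sf3b5. The members together held 1.29% of the summed TPM of protein-coding nuclear genes in replicate 1 and 1.33% in replicate 2. The hnRNP genes held 0.840% and 0.837% of it, the SR genes 0.326% and 0.372%, and the SF3 genes 0.123% and 0.117%. The median member of the hnRNP family was at 144 TPM in replicate 1, against 187 TPM in replicate 2, that of the SR family at 101 and 143 TPM, and that of the SF3 family at 57.4 and 63.4 TPM. For comparison, the median protein-coding nuclear gene with a mean of at least 1 TPM was at 11.8 and 13.6 TPM. The order of the families by their median was thus the same in both libraries.

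**Figure D1:**
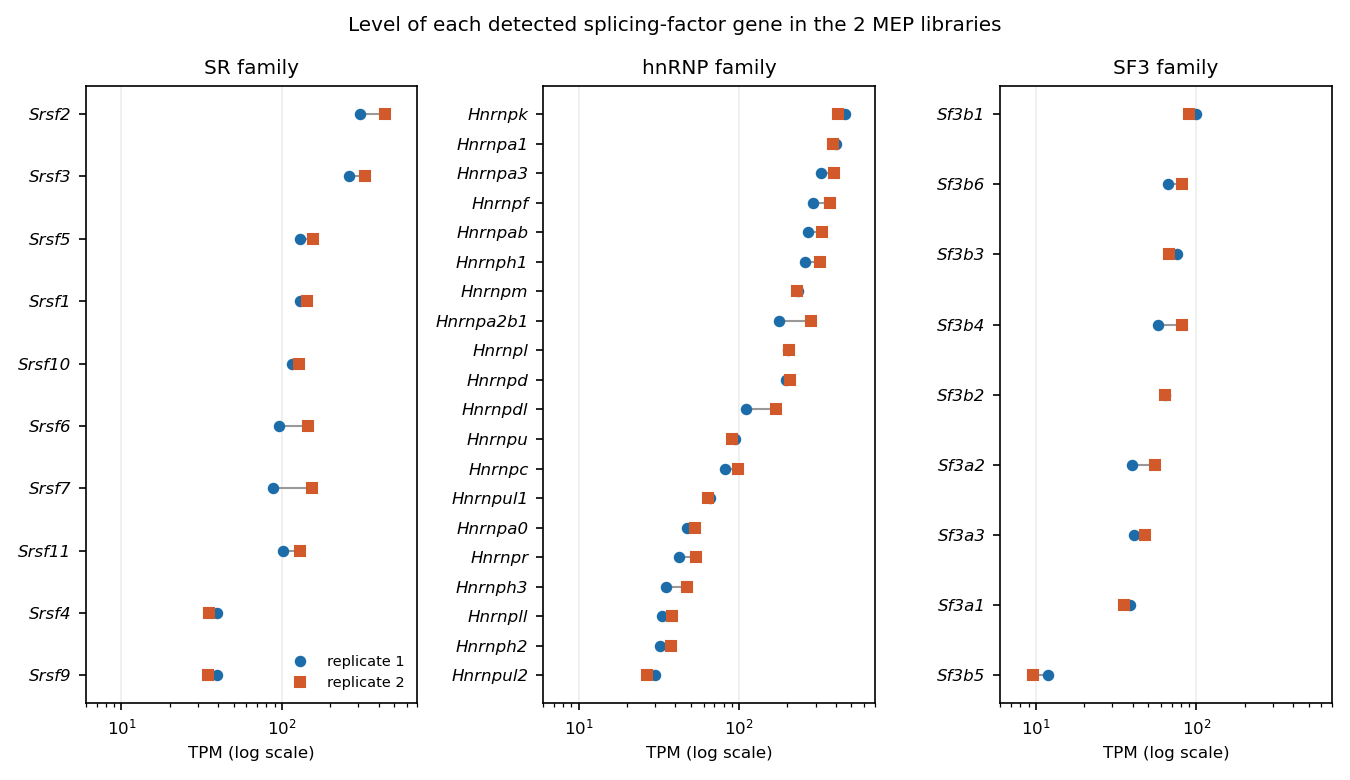
TPM on a log axis of the 39 detected members in replicate 1 (circles) and replicate 2 (squares), by family and ordered by mean. The grey line joins the 2 libraries of a gene. By mean gene TPM, which takes in non-coding transcripts, Srsf2, Hnrnpk and Sf3b1 lead their families. The SF3 members other than Sf3b5 lie within a narrow range, and Srsf12, at 0 in both libraries, is not drawn.

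Among the SR genes, Srsf2 (ENSMUSG00000034120.14, chr11:116849901-116853094, minus strand), which encodes the nuclear speckle protein SC35, was highest by gene TPM. Its level was 308 TPM in replicate 1, against 437 TPM in replicate 2, a mean of 373 ± 91.3 TPM (SD, n = 2). Srsf3 (ENSMUSG00000071172.8, chr17:29032628-29043373, plus strand), the smallest SR protein and an adaptor for mRNA export, came next at 262 and 329.5 TPM (296 ± 48.0 TPM, SD, n = 2). Srsf2 lay above Srsf3 in each library, although the ranges of the 2 genes over the libraries overlapped. By expected counts the order was the reverse in both libraries, at 9023 and 20921 for Srsf2 against 10655 and 23186 for Srsf3. The next genes lay close to one another, since Srsf5, Srsf1, Srsf10, Srsf6, Srsf7 and Srsf11 had means of 142, 136, 122, 121, 121 and 116 TPM. Srsf1, the prototype of the family, was at 129.9 and 143 TPM, and Srsf10, which acts as a repressor when dephosphorylated, at 116 and 128 TPM. Srsf7 (ENSMUSG00000024097.10, chr17:80200080-80207307, minus strand), whose protein carries a zinc knuckle beside its RNA recognition motif, varied most of all members, at 87.9 TPM in replicate 1, against 155 TPM in replicate 2. Srsf4 was at 39.5 and 35.2 TPM and Srsf9, a close relative of Srsf1, at 39.2 and 34.9 TPM. No Srsf12 count was found in either library; with 3 counts as the limit that a count of 0 allows, this amounts to 0.0781 TPM in replicate 1, against 0.0452 TPM in replicate 2, at the mean effective length of the gene and for counting error only. For its shorter transcript, Srsf12-202, the authors' upper bounds were 0.189 and 0.113 TPM.

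Poison exons could be read off the annotation for some members. The annotation holds 24 transcripts of members classed as targets of nonsense-mediated decay. In 12 of them the stop codon lay outside the exons of the most abundant coding transcript, in 6 it lay within such an exon, and in 6 it was the usual stop codon followed by an intron further on. Exact cassette exons that bring in the stop codon of a decay transcript, and that a coding transcript of the same gene skips between the same neighbours, were found in 5 members. Their sequences are printed because the stop codon they carry is what sets the decay transcript apart. Each line runs from the first base of the exon to its stop codon, which is in capitals, on the coding strand, from GENCODE M21 transcripts on GRCm38 (also called mm10).
Srsf3, chr17:29039454-29039487, plus strand: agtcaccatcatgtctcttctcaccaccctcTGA
Srsf6, chr2:162932815-162932966, plus strand: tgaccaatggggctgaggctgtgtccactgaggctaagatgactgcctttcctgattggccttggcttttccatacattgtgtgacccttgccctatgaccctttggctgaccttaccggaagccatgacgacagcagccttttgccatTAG
Hnrnpl, chr7:28817335-28817393, plus strand: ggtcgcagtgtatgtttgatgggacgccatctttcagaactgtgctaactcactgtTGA
Hnrnpll, chr17:80044976-80045022, minus strand: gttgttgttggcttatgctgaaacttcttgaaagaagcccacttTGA
Sf3b1, chr1:55014905-55014924, minus strand: gcttctattctgctgctTGA
The whole exons are 456 bases long in Srsf3, 268 in Srsf6, 70 in Hnrnpl, 83 in Hnrnpll and 56 in Sf3b1. The stop codon came within 20 bases of the exon's start in Sf3b1 and 152 bases into it in Srsf6, and the last exon junction lay 116 to 842 bases further on.

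Inclusion of a poison exon was taken as the percent of TPM of the transcripts that carry it, of all transcripts that carry or skip it. For the Srsf3 exon it was 15.4% in replicate 1 and 7.67% in replicate 2. The Srsf6 exon had 6.53% in replicate 1 and 17.9% in replicate 2. So the 2 SR poison exons lay in opposite order in the 2 libraries, and the authors' credibility intervals of each decay transcript did not overlap between them. For the decay transcript Srsf6-201 those intervals ran from 3.01 to 7.32 TPM in replicate 1 and from 17.8 to 22.7 TPM in replicate 2, and for Srsf3-201 from 17.0 to 23.2 TPM and from 10.5 to 14.3 TPM. Such intervals cover the assignment of reads within a library and not the preparation of the library. The Srsf3-201 model used for the quantification was 1919 bases long and is 2594 bases long in the annotation used here, so its exons may not be the same in both.

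Other decay transcripts of SR genes ranged widely in level. Srsf2-204, which keeps the usual stop codon and has an intron 113 bases after it, was at 98.8 TPM in replicate 1, against 163 TPM in replicate 2. It made up 32.1% and 37.2% of the TPM of its gene. That model is only 620 bases long, and it held 1051 and 2856 expected counts of the 9023 and 20921 of the gene. Srsf1-204, whose stop codon lies in a coding exon 80 bases before the last junction, was at 10.1 TPM in replicate 1, against 35.4 TPM in replicate 2, with intervals from 6.77 to 13.0 TPM and from 30.6 to 38.0 TPM. In the same gene Srsf1-203, annotated as a retained-intron transcript, went the other way, at 33.0 and 8.31 TPM. It held no intron, whole or in part, of the leading coding transcript Srsf1-205. The share of Srsf1 TPM in non-coding transcripts was therefore similar in both, at 39.98% and 33.8%. Srsf4, Srsf5 and Srsf11 each had annotated decay transcripts at 3.94 TPM or less in both libraries.

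Hnrnpk (ENSMUSG00000021546.13, chr13:58391142-58403343, minus strand), whose protein binds runs of cytosine through KH domains, had the highest mean of all members. Its level was 454 TPM in replicate 1, against 413 TPM in replicate 2 (434 ± 28.9 TPM, SD, n = 2). In replicate 2 Srsf2 lay above it. Gene TPM takes in non-coding transcripts, which held 59.6% of the Hnrnpk TPM in replicate 1 and 54.3% in replicate 2. Hnrnpk had 12641 and 22297 expected counts, against 14294 and 23853 for Hnrnpa1, which has no non-coding transcript in the annotation. The first rank of Hnrnpk thus holds for gene TPM and not for counts. Hnrnpa1, a classic silencer of exons, followed at 400.01 and 387 TPM (393.5 ± 9.21 TPM, SD, n = 2), and its relative Hnrnpa3 at 326 and 389.7 TPM (358 ± 45.2 TPM, SD, n = 2). The libraries ordered these differently, since Hnrnpa3 lay above Hnrnpa1 in replicate 2, so Hnrnpa1 and Hnrnpa3 did not differ beyond their spread. Hnrnpf and Hnrnph1, which bind runs of guanine, were at 289.9 and 369 TPM and at 256 and 321 TPM. Hnrnpab, an A/B-type relative of Hnrnpd, was at 267 and 330.03 TPM. Hnrnpm was nearly the same in both libraries, at 234 and 231 TPM, as was Hnrnpl, which binds CA repeats, at 200.9 and 205 TPM. Hnrnpa2b1, which encodes the A2 and B1 proteins, was at 178 TPM in replicate 1, against 282 TPM in replicate 2. Hnrnpd, whose protein AUF1 also binds AU-rich elements of mRNA, was at 195 and 207 TPM, and its paralog Hnrnpdl at 110.04 TPM in replicate 1, against 169.8 TPM in replicate 2.

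A lower tier of hnRNP genes lay under 100 TPM in both libraries. Hnrnpu, a scaffold protein of chromatin and nuclear RNA, was at 94.3 and 89.7 TPM, and Hnrnpc, which coats nascent transcripts and binds runs of uridine, at 81.3 and 99.0 TPM. The remaining 7 genes were Hnrnpul1, Hnrnpa0, Hnrnpr, Hnrnph3, Hnrnpll, Hnrnph2 and Hnrnpul2. Their means ran from 65.0 TPM for Hnrnpul1 to 28.3 TPM for Hnrnpul2. Hnrnpll, known for regulating the splicing of CD45 in lymphocytes, was at 32.9 and 38.0 TPM. X-linked Hnrnph2 was at 32.0 and 37.4 TPM, far below its autosomal relative Hnrnph1, with no overlap between the 2 genes.

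The hnRNP genes also have cassette exons that keep the reading frame and so give different proteins. Exons with a length divisible by 3, present in 1 set of coding transcripts and skipped between the same neighbours in another, each set at a mean of 1 TPM or more, were found 7 times, all in hnRNP genes, and 6 of them are described here. Their sequences are printed because their inclusion decides which protein form is made. The exon is in capitals, with 10 bases of its neighbours in lower case, on the coding strand, from the same M21 transcripts.
Hnrnpa2b1, 120 bases, chr6:51464428-51464547, minus strand: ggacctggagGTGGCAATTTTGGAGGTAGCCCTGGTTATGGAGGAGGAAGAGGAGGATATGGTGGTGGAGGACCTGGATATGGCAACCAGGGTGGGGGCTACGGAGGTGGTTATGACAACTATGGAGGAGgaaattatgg
Hnrnpa2b1, 36 bases, chr6:51467391-51467426, minus strand: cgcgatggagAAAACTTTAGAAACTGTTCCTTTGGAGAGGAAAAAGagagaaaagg
Hnrnpab, chr11:51601750-51601890, minus strand: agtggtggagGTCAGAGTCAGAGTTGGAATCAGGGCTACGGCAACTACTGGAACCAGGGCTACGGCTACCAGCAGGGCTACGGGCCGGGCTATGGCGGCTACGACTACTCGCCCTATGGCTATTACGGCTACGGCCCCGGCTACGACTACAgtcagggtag
Hnrnpd, 147 bases, chr5:99963731-99963877, minus strand: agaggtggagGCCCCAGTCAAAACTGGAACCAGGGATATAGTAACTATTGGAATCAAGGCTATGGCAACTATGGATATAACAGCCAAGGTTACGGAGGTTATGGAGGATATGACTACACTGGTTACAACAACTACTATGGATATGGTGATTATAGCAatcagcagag
Hnrnpd, 57 bases, chr5:99976534-99976590, minus strand: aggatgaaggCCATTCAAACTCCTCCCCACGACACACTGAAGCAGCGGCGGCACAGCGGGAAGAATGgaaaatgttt
Hnrnpk, chr13:58396188-58396259, minus strand: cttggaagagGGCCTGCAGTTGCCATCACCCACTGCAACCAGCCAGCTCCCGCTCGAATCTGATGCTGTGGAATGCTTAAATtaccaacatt
The long exons of Hnrnpa2b1, Hnrnpab and Hnrnpd were rich in glycine codons (GGN, with N for any base) and tyrosine codons (TAT or TAC), as is known for the low-complexity tails of these proteins. In the reading frame, the Hnrnpa2b1 exon of 120 bases held 23 GGN codons of 39, the Hnrnpab exon 13 of 46 and the Hnrnpd exon of 147 bases 12 of 48. GGN made up 24.4%, 15.1% and 17.3% of all codons of the transcripts these were read from. TAT or TAC codons numbered 14 in the Hnrnpab exon and 14 in the long Hnrnpd exon. The 36-base exon of Hnrnpa2b1 and the 57-base exon of Hnrnpd held no GGN codon and no TAT or TAC codon.

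Inclusion of these coding exons ranged from a minor share to a dominant one. The Hnrnpab exon was included at 39.9% in replicate 1 and 38.6% in replicate 2, and the 57-base exon of Hnrnpd at 43.0% and 38.9%. The 36-base exon of Hnrnpa2b1, which tells the B1 protein from A2, was at 69.4% and 71.8%, and the 120-base exon of the same gene at 83.7% and 90.4%. The Hnrnpk exon was at 80.8% and 88.4%. The 147-base exon of Hnrnpd had the widest gap, at 50.4% in replicate 1 and 69.2% in replicate 2. For the other 5 exons the libraries were within 10 percentage points of each other. These values take in every transcript that carries or skips the exon, decay and retained-intron ones included. With coding transcripts alone, a measure added after the data were seen, the 147-base Hnrnpd exon was at 61.1% and 83.3% and the Hnrnpk exon at 76.8% and 87.1%, and the other values were the same. By expected counts of every such transcript, also added, the values moved for most exons. The 57-base Hnrnpd exon was at 25.4% and 28.1%, the 147-base one at 58.9% and 74.8%, and the Hnrnpab exon at 27.9% and 26.6%. The 36-base Hnrnpa2b1 exon was at 85.5% and 87.0%, the 120-base one at 92.3% and 95.6%, and the Hnrnpk exon at 82.5% and 88.2%. The transcript that carries the 36-base Hnrnpa2b1 exon, Hnrnpa2b1-203, was quantified with a length of 4086 bases and has 1728 in M21. For Hnrnpd-211 these lengths were 4320 and 6811 bases, so both models changed between annotations. Hnrnpa2b1-201 and Hnrnpa2b1-202, which skip the 36-base exon, were quantified at 1647 and 1662 bases. Inclusion was taken from whole transcripts, and reads over the exons or their junctions were not examined. The values for the 36-base exon therefore cannot show whether B1 or A2 RNA was higher.

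**Figure D2:**
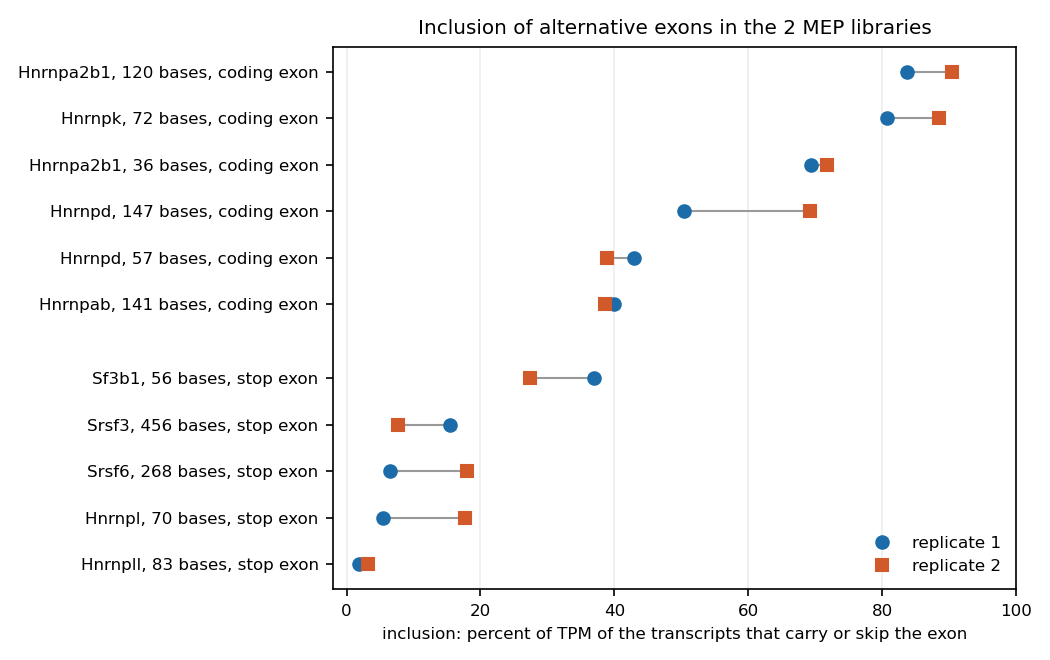
Inclusion of 6 coding exons (top) and the 5 stop exons (bottom) in percent of the TPM of transcripts that carry or skip them, for replicate 1 (circles) and replicate 2 (squares). The Hnrnpa2b1 exon of 120 bases is above 80% in both libraries, and the stop exons of Srsf3 and Srsf6 lie in opposite order in the 2 libraries.

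The SF3 members other than Sf3b5 were expressed within a narrow range. Sf3b1 (ENSMUSG00000025982.9, chr1:54985169-55027481, minus strand), the large subunit that clasps the branch point, was highest by gene TPM at 99.1 TPM in replicate 1, against 90.5 TPM in replicate 2 (94.8 ± 6.07 TPM, SD, n = 2). Non-coding transcripts held 56.3% and 54.0% of this, and its only coding transcript, Sf3b1-201, was at 43.3 and 41.6 TPM. That transcript lay below Sf3b6, Sf3b3 and Sf3b2, which have 1 transcript each, a coding one. Sf3b6, the small subunit p14 at the branch point adenosine, followed at 66.5 and 80.9 TPM, and Sf3b3 at 75.2 and 67.8 TPM. These 2 genes changed places between the libraries and did not differ beyond their spread. Sf3b4, which contacts the intron upstream of the branch point, was at 57.4 TPM in replicate 1, against 81.6 TPM in replicate 2. Sf3b2 was at 64.0 and 63.4 TPM, with a coefficient of variation of 0.611% on this scale, whereas its log2 difference with TMM factors was -0.19. The SF3a subunits were lower: Sf3a2 at 39.9 and 55.5 TPM, Sf3a3 at 41.1 and 47.5 TPM, and Sf3a1 at 38.6 and 35.3 TPM. Sf3b5 stood apart at 11.8 and 9.53 TPM, from 963 and 1353 expected counts on a transcript model of 3841 bases. Apart from Sf3b5, the means of the members spanned 36.9 to 94.8 TPM. Phf5a, an SF3b subunit that the symbol rule leaves out, was higher, at 145 and 178 TPM.

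The Sf3b1 poison exon printed above was included at 37.0% in replicate 1 and 27.4% in replicate 2, the highest of the 5 by TPM. Its decay transcript Sf3b1-208 was at 25.4 and 15.7 TPM beside 43.3 and 41.6 TPM of the coding transcript Sf3b1-201. That decay model is only 600 bases long, and it held 259 and 264 expected counts of the 7430 and 13643 of the gene. By expected counts of the same transcripts, a measure added after the data were seen, inclusion was 4.30% and 2.65% for Sf3b1, below the 11.8% and 5.72% for Srsf3. By counts it was 3.05% and 8.88% for Srsf6, 1.58% and 7.68% for Hnrnpl, and 1.73% and 2.99% for Hnrnpll. The Hnrnpl exon was at 5.50% in replicate 1 and 17.6% in replicate 2, and the Hnrnpll exon at 1.88% and 3.26%. By TPM, inclusion of the Hnrnpl exon rested mainly on a retained-intron transcript, Hnrnpl-207, with 6.15 and 17.3 TPM. The decay transcript Hnrnpl-213 had only 0 and 3.68 TPM. The Hnrnpl value of replicate 1 thus came from Hnrnpl-207 alone.

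Between the libraries, no member differed by more than 2-fold on the log2(TPM + 1) scale. This holds for 0 of 39 detected members. Among 5308 protein-coding nuclear genes at 10 TPM or more in both libraries, 1.56% were past 2-fold in the direction of replicate 2 and 0.226% in that of replicate 1; among those with a mean of at least 1 TPM the shares were 5.13% and 2.45%. The members' count of 0 stands beside these low shares and describes these 2 libraries only. Srsf7 differed most, by 0.81 on the log2 scale, a ratio of 1.76 with an exact 95% interval from 1.70 to 1.82 that covers counting error only. Hnrnpa2b1 (0.66), Hnrnpdl (0.62), Srsf6 (0.59), Srsf2 (0.50) and Sf3b4 (0.50) came next, all higher in replicate 2. At the other end Sf3b5 was at -0.29, higher in replicate 1.

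The direction of the smaller differences depended on the scale. Of the 39 detected members, 26 were higher in replicate 2 and 13 in replicate 1, while 73.5% of the background genes at 10 TPM were higher in replicate 2. The median log2 difference was 0.26 over the 11 SR genes, or 0.30 over the 10 detected ones, 0.21 over the hnRNP genes and -0.01 over the SF3 genes, against 0.19 over the background. TPM rescaled to protein-coding genes moved the median of all genes with a mean of at least 1 TPM from 0.18 to 0.01, and the split of members became 21 and 18; with TMM or DESeq2 factors it was 23 and 16. With the shift removed in this way the family medians were 0.08 for the 11 SR, 0.03 for hnRNP and -0.19 for SF3 genes with rescaled TPM, and 0.11, 0.05 and -0.11 with TMM factors. For 8 members, Hnrnpa0, Hnrnpd, Hnrnpl, Hnrnpm, Sf3b2, Srsf1, Srsf10 and Srsf5, the sign changed with the scale, each with a difference of at most 0.26. Those of Srsf7, Hnrnpa2b1, Hnrnpdl, Srsf6, Srsf2, Sf3b4 and Sf3b5 kept their sign under all scales tried, but not their size. With TMM factors Srsf7 was at 0.62, Hnrnpa2b1 at 0.51, Hnrnpdl at 0.37, Srsf6 at 0.33, Srsf2 at 0.23 and Sf3b4 at 0.18, while Sf3b5 was at -0.48.

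**Figure D3:**
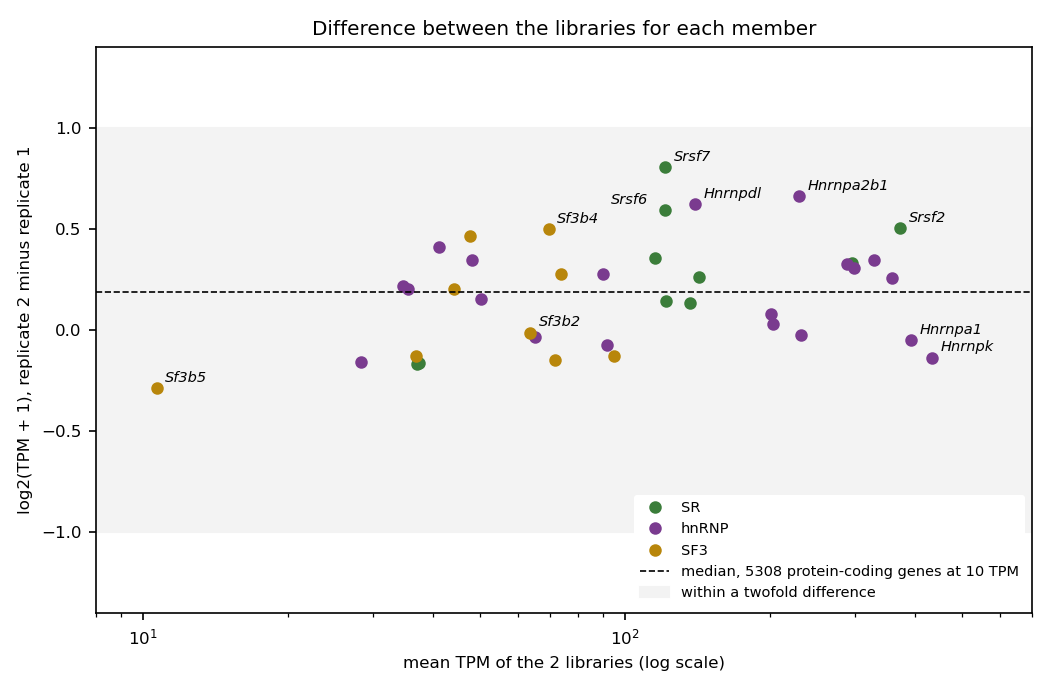
Difference in log2(TPM + 1), replicate 2 minus replicate 1, against mean TPM on a log axis, for the 39 detected members by family. The dashed line is the median of 5308 protein-coding nuclear genes at 10 TPM or more in both libraries, 0.19, and the grey band marks differences under 2-fold, within which every detected member lies.

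A large part of the RNA of many members was assigned to transcripts that are not annotated as coding. The 237 transcripts of the members included 119 coding ones, 60 with a retained intron, 33 processed transcripts with no open reading frame given and 24 decay targets. Of the 39 detected members, 25 had at least 1 non-coding transcript in the annotation. Over these, the median share of gene TPM in non-coding transcripts was 32.9% in replicate 1 and 34.55% in replicate 2, against 24.2% and 22.9% over 3538 background genes. It was 39.98% and 35.1% over 9 SR genes, 32.9% and 37.5% over 11 hnRNP genes, and 5.87% and 10.95% over 5 SF3 genes. In 6 members the share was 50% or more in both libraries, against 16.7% of the background: Srsf3, Srsf11, Hnrnpk, Hnrnph1, Hnrnph3 and Sf3b1. No member's share differed by 25 percentage points or more between the libraries, as it did for 9.07% of the background.

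Non-coding models are often short, and TPM weights a read on a short model more. By expected counts, the share was lower than by TPM in 22 of the 25 members. The median by counts was 18.2% in replicate 1 and 16.3% in replicate 2, against 10.9% and 10.7% over the 3538 background genes. Only Hnrnph1 and Srsf11, 2 of the 25, then reached 50% in both. The percent of background genes at 50% by counts was not computed. The gap was wide for Hnrnpu, at 44.3% and 43.4% of TPM but 6.08% and 5.56% of counts, and for Srsf1, at 8.74% and 7.25% of counts. Srsf5, whose main retained-intron model is 2720 bases long, went the other way, with 35.5% and 30.6% of TPM and 49.1% and 40.3% of counts. Hnrnpr, with 9.92% and 16.3% of counts, and Hnrnpll, with 32.9% and 40.9% of counts, were the other members not lower by counts.

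**Figure D4:**
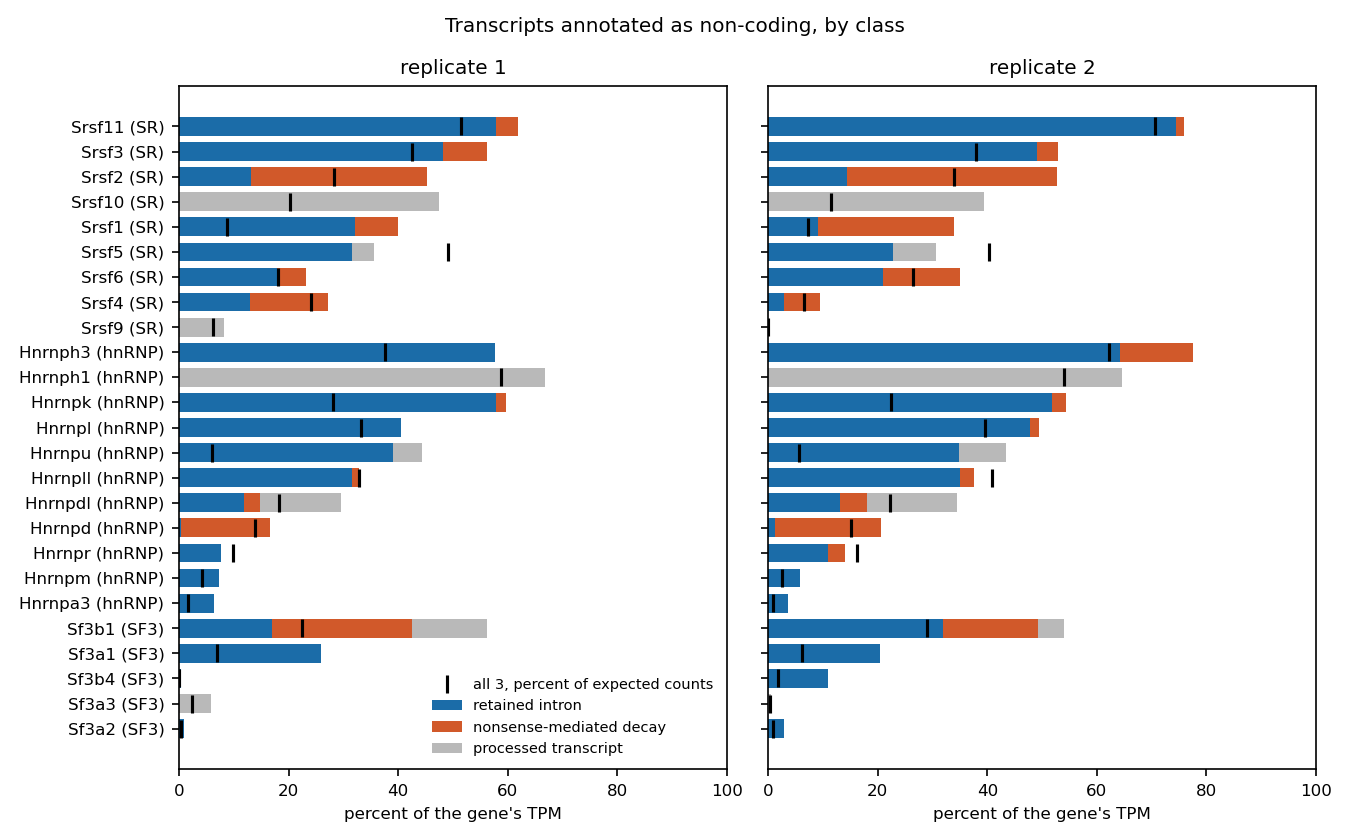
Percent of gene TPM in retained-intron, decay and processed transcripts (stacked bars) for the 25 detected members with a non-coding transcript, in replicate 1 (left) and replicate 2 (right). Black ticks give the percent of expected counts in all 3 classes, which lies left of the bar's end for most members and right of it in both libraries for Srsf5 and Hnrnpr.

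Retained-intron transcripts were annotated for 21 of the detected members and decay transcripts for 15. The median share of gene TPM in retained-intron transcripts was 17.9% in replicate 1 and 20.4% in replicate 2, against 16.3% and 15.9% in the background. In 7 members it was 25% or more in both libraries, against 26.7% of the background, so the members' count is close to the background. The highest was Srsf11, whose protein acts at 3′ splice sites, at 57.9% in replicate 1 and 74.4% in replicate 2. Hnrnph3 was at 57.6% and 64.3%, Hnrnpk at 57.8% and 51.9%, and Srsf3 at 48.2% and 49.1%. Hnrnpl, Hnrnpu and Hnrnpll lay between 31.5% and 47.7%. Decay transcripts were at 10% or more of TPM in both libraries in 3 of the 15 members that have one, Srsf2, Hnrnpd and Sf3b1, against 23.7% of the background.

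Retained-intron transcripts with a mean of at least 5% of their gene's TPM numbered 34. Of these, 13 held a whole intron of the leading coding transcript, 20 only part of one and 1, Srsf1-203, neither. The whole introns numbered 14 and were 78 to 2150 bases long, and all began with GT and ended with AG. In Srsf3, Srsf6 and Sf3b1 the retained intron is the one that holds the poison exon printed above, so that the same stretch of the gene enters RNA either as an exon or as part of an intron. The ends of these introns are printed to show the splice sites that were passed over, with those of 3 other introns chosen after their values were seen. Each end is 30 bases, first the donor, with 10 exon bases before the GT, then the acceptor, with 10 exon bases after the AG; GT and AG are in capitals.
Srsf3 intron 3, chr17:29038625-29040774, donor: ctcggcgcagGTacttgagagagcaccttt
Srsf3 intron 3, acceptor: tttactgtttctgcttctAGatccccaaga
Srsf6 intron 2, chr2:162932143-162933425, donor: ggaagccgcaGTgagtccttacccccgcgc
Srsf6 intron 2, acceptor: actcccttcatgtgataaAGgtggtggagg
Sf3b1 intron 4, chr1:55014563-55016375, donor: tttgcagatgGTaattctttcccacttttc
Sf3b1 intron 4, acceptor: gttgctgttcttttctgcAGgagggaagac
Srsf5 intron 5, chr12:80947866-80949094, donor: cagctggcagGTttgttgaaatacagtttt
Srsf5 intron 5, acceptor: cataattgtcttgtgttaAGgatctcaaag
Hnrnpk intron 13, chr13:58393775-58393852, donor: tctggatatgGTaagtttcttctttttgaa
Hnrnpk intron 13, acceptor: ctgctcattatttaaatcAGactattctta
Hnrnph3 intron 8, chr10:63015895-63016079, donor: gatggaatggGTatgtatagttttgtattt
Hnrnph3 intron 8, acceptor: ggcttcttttctgtgtgcAGataatcaagg
The transcripts that keep these introns were Srsf3-204 (23.2 TPM in replicate 1, against 27.8 TPM in replicate 2), Srsf6-204 (17.2 and 30.6 TPM), Sf3b1-203 (11.6 and 13.1 TPM), Srsf5-212 (30.9 and 29.9 TPM), Hnrnpk-217 (86.3 and 89.9 TPM) and Hnrnph3-205 (14.4 and 23.7 TPM). As a share of gene TPM they ran from 8.43% to 21.7% for Srsf3, Srsf6, Sf3b1 and Hnrnpk, were 23.9% and 19.3% for Srsf5, and 40.9% and 50.2% for Hnrnph3. Total RNA includes unspliced precursor, which a transcript table does not tell from a finished transcript with a retained intron. Srsf3-205, the larger retained-intron model of Srsf3 at 103 and 134 TPM, was 910 bases long in the quantification and is 2110 bases long in M21, and no intron is shown for it.

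The leading transcript, the one with the largest share of gene TPM, did not differ between the libraries in 27 of the 32 detected members with more than 1 transcript, against 76.2% of the background. Among the highest members, Srsf2-201 led with 53.0% in replicate 1 and 47.2% in replicate 2, Srsf3-202 with 43.8% and 47.0%, Srsf5-201 with 48.1% and 29.6%, Hnrnpa1-202 with 97.9% and 98.2%, Hnrnpa3-202 with 80.4% and 79.7%, and Sf3b1-201 with 43.7% and 46.0%. Sf3b6 and Sf3b3 have 1 transcript each. A non-coding transcript led in both libraries in Hnrnph1 and Hnrnph3, 2 of 25 members, against 12.4% of the background. In Hnrnph1 it was Hnrnph1-212, a processed transcript, at 24.8% and 37.6%. The gene has 15 non-coding models among its 18. By expected counts another processed transcript, Hnrnph1-205, led there, with 2499 and 5957 against 947 and 3031 for Hnrnph1-212. In Hnrnph3 the leader by TPM was Hnrnph3-205, a model of 651 bases. By counts it lay below the coding Hnrnph3-202, at 163 and 444 against 281 and 504.

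The leading transcript differed in 5 members. In Hnrnpk the retained-intron transcript Hnrnpk-215 led in replicate 1 with 22.8%, and the coding transcript Hnrnpk-201 in replicate 2 with 24.9%. By expected counts Hnrnpk-201 led in both libraries, with 3816 and 9970 against 880 and 1169 for Hnrnpk-215, a model of 522 bases. Srsf11 went from the coding Srsf11-202, at 26.5% in replicate 1, to the retained-intron Srsf11-213, at 29.4% in replicate 2. In Srsf10, Hnrnpd and Hnrnph2 both leaders were coding. Srsf10-205 led at 21.3% in replicate 1 and Srsf10-204 at 36.1% in replicate 2. Srsf10-204, with 3058 bases, was at 16.2% in replicate 1, where the coding Srsf10-202, with 3055 bases, was at 14.6%. In replicate 2 Srsf10-202 was at 0%. Hnrnpd-210 led at 29.9% and Hnrnpd-203 at 38.5%, and Hnrnph2-205 at 36.6% and Hnrnph2-203 at 57.7%. By expected counts Hnrnpd-203 led in both libraries, with 1671 and 4619 against 459 and 573 for Hnrnpd-210, a model of 493 bases. In Srsf11, Srsf10 and Hnrnph2 the leaders by counts were those by TPM. Hnrnpr kept Hnrnpr-202 as its leader, but its share was 77.6% in replicate 1 and 35.3% in replicate 2. The coding Hnrnpr-201, with 2647 bases against 2683 for Hnrnpr-202, was at 0% and 24.0%. How reads were divided between coding models of such similar length was not tested.

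Other genes of the splicing pathway were expressed alongside. In the list of SR-like activators and SR kinases, 10 of 12 genes were at 10 TPM or more in both libraries, led by the speckle proteins Srrm2 (266 and 322 TPM) and Srrm1 (143.5 and 187.5 TPM). All 11 genes of the list of other U2 and U2AF proteins reached that level, with Phf5a, a further SF3b subunit, at 145 and 178 TPM and Sf1, which binds the branch point before U2, at 119 and 187 TPM. All 6 U1 genes did, with Snrpa at 133 and 137 TPM and Luc7l2 at 84.2 and 102 TPM. Of 8 Sm core genes 7 did, with Snrpg at 539 and 613 TPM and Snrpe at 269 and 357 TPM; the exception, Snrpn, was at 0 in both.

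Of 17 genes for U5 and U4/U6 proteins, 16 were at 10 TPM or more in both, led by Snu13 (162 and 169 TPM) and Eftud2 (139 and 161 TPM). Lsm5 was past 2-fold, at 27.6 TPM in replicate 1, against 72.7 TPM in replicate 2. Of 23 other RNA-binding regulators 20 reached 10 TPM, led by Mbnl1 (243 and 247 TPM) and Tardbp (189 and 274 TPM). Of 10 genes of nonsense-mediated decay 8 did, and Upf3b was past 2-fold at 18.0 and 38.0 TPM. None of 12 regulators known mainly from neurons, muscle or, for Esrp1 and Esrp2, epithelia was above 1 TPM in either library, and 8 of them were at 0 in both. For 7 of 9 listed small nuclear RNA genes a value was found, with Rn7sk at 39818 and 24211.5 TPM and Rnu1a1 at 255 and 289 TPM; 5 of the 7 were past 2-fold, Rnu12 in the direction of replicate 2 and Rnu2-10, Rnu5g, Rnu11 and Rnu1b1 in that of replicate 1, on at most 159 expected counts each. These RNAs are mostly shorter than the size limit of the libraries.

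Some members share sequence with other genes. Transcripts of genes elsewhere matched at 95% identity or more over at least 200 bases for 11 members. Hnrnpa3 had 35 such copies, and those with a value in the quantification together held 4.57% and 5.35% of the count of Hnrnpa3 itself. Hnrnpa1 had 9 pseudogene copies, with 1.21% and 0.956% in those with a value. Some copies of Hnrnpa3, Hnrnpa1, Hnrnpf, Hnrnpk and Srsf3 had no value and are left out of the shares given here. The copies of Hnrnpc held 3.68% and 3.77% and those of Hnrnpk 3.31% and 3.03% of the parent gene's count, and for the other 7 members the share was 0.592% or less. How the counting divided reads between these genes and their copies was not tested, so their levels are uncertain. At the same locus, 16 members overlap a gene on the opposite strand, among them Srsf2 with Mfsd11 and Mettl23, Hnrnpk with Rmi1 and Hnrnpab with Phykpl. An overlap with a gene on the same strand was found for 9 members, some of them also among the 16, with partners such as the small RNA genes Mir7-1 at Hnrnpk and Snord111 at Sf3b3. Whether the counting used strand is not given in the sources used here, so reads from opposite partners may be mixed.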

How the data were processed

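Total RNA-seq of 2 MEP libraries was analysed. Per the README deposited with the tables, the authors quantified against mm10 and GENCODE M4; column names are those RSEM writes, and the aligner and quantifier are not named in the sources used here. The authors' expected counts are estimated reads per gene or transcript, and were rounded for edgeR and DESeq2 factors. TPM was scaled by the authors over all features. The percent of gene TPM per transcript and the credibility bounds (given as signal of the TPM) were deposited by the authors; a transcript's TPM may lie just outside these bounds, whose level is not stated.

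Symbols, transcript types, exons and sequences came from GENCODE M21 on GRCm38 by identifier without version: 42462 of 43346 genes and 236 of 237 member transcripts matched. Of these, 22 have another length in M21. No protein table was used.

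Differences were log2(TPM + 1), replicate 2 minus replicate 1, which understates low genes; with 1 group no p-value was computed. The background was protein-coding nuclear genes at 10 TPM or more in both libraries, for isoform shares those with a transcript of the class. Intervals are exact Clopper-Pearson at 95% and cover counting error only. Copies were sought with blastn 2.17.0. Other tools were edgeR 4.0.16 and DESeq2 1.42.0 (R 4.3.3) and, under Python 3.11.15, pandas 2.3.3, numpy 2.4.6, matplotlib 3.10.9 and scipy 1.17.1. The 2-fold calls were tested on simulated counts and the isoform shares on a small made-up table. The exon, intron and copy steps were not tested in this way. Members, lists and markers were chosen with earlier results of these data known. All members are named by family, plus, from each list of other splicing genes, the 2 highest by mean TPM and those past 2-fold at a mean of 1 TPM or more; transcripts are those leading the 3 highest members of a family, those of members at 50% non-coding or more in both libraries, and differing leaders. Snrpn and all other transcripts named were chosen after their values were seen. Alternatives were posterior mean TPM, other scalings, a pseudocount of 0.1, other minimums, counts in place of TPM and each library alone. A gene of the decay list and a coding exon that these rules select are not reported here.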

Additional observations from a re-analysis of the deposited data

Results flagged for a closer look

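The processed pseudogene Hnrnpa1l2-ps, which is not a member because it is not protein-coding, had 31.48 expected counts in replicate 1, against 0 in replicate 2, above the limit of 3 counts that a count of 0 allows. It matches Hnrnpa1 at 95.8% identity over 966 bases, and Hnrnpa1 itself had 14293.66 and 23852.9 expected counts. How reads were divided between the 2 genes was not tested.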

How the results depend on the processing

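No paired analysis was possible because the 2 libraries form 1 group. The number of members at 10 TPM or more was 38 or 39 in all settings except a minimum of 100 TPM, where it was 17. Rescaling TPM to protein-coding genes put the median level at 281 TPM for SR, 397 TPM for hnRNP and 149 TPM for SF3 genes, from 121, 171 and 63.7 TPM, because the sum is spread over fewer genes; as CPM with TMM factors, which are not corrected for length, it was 188 for SR and 85.4 for SF3 genes. Taken in 1 library at a time, the SF3 median ran from 57.4 to 63.4 TPM, the non-coding median from 32.9% to 34.55% and the retained-intron median from 17.9% to 20.4%. With posterior means the hnRNP share of protein-coding TPM was 0.832% in place of 0.839%, and the SF3 difference was 0.0030 in place of -0.01, a change of sign about 0. By expected counts the non-coding median was 15.8% in place of 33.1% and the retained-intron median 12.7% in place of 20.6%. With decay transcripts counted as coding the non-coding median was 23.1%. No setting put a member past 2-fold. Over these summaries, 53 alternative values stayed within a limit, 13 moved further and 1 changed sign. The limit was the spread between libraries or, for counts, a value near the main count. For the family differences it was the SD over the detected members of the family, a spread between genes. That SD was 0.31 for SR, 0.23 for hnRNP and 0.29 for SF3 genes, so shifts of the family medians under it were counted as within.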
